A study of Mus musculus with 6 samples.

Results

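The TNF superfamily was described here as 42 genes out of the 55291 in the deposited table. They were chosen by symbol: every gene named Tnfsf or Tnfrsf with a number, and Tnf, Lta, Ltb, Ltbr, Fas, Fasl, Cd40, Cd40lg, Cd27 and Cd70. They comprise 17 ligands, 24 receptors and Tnfsf13os, an antisense RNA gene that the symbol pattern also catches. No measured value entered the choice. Polyadenylated RNA of 6 mouse liver tumours was sequenced, each as 1 bulk library. The MKO_PD1 group is 3 tumours from Trem2-MKO mice, in which Trem2, a lipid-sensing receptor gene of macrophages, is knocked out in myeloid cells. The Cre_PD1 group is 3 tumours from LysM-Cre mice, which carry the Cre recombinase under control of the lysozyme 2 gene and serve as controls. All 6 tumours were RIL-175/PD-1R tumours and all 6 mice had received anti-PD-1, so neither group is untreated. RIL-175 is an established mouse hepatocellular carcinoma line, and the meaning of PD-1R is not given in the sources used here. LysM-Cre is active in macrophages, monocytes and neutrophils, so the tumour cells and lymphocytes of MKO_PD1 mice keep the gene. The labels used here give no strain, age, antibody dose, time or batch.

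Ligands of the TNF superfamily are mostly trimeric membrane proteins, some of which are shed, and they act by clustering their receptors on another cell. Receptors with a death domain, such as Fas and TNFR1, can start caspase-driven death, whereas most others recruit TRAF adaptors and switch on NF-kB. In tumours the family is known for killing by T cells and NK cells (Fas ligand, TRAIL), for costimulation of T cells (CD137, OX40, GITR, CD27, CD40) and for inflammation (TNF, lymphotoxins). Several receptors are also made by epithelial and stromal cells, among them Fn14, the receptor of TWEAK, and soluble or signalling-deficient decoys that bind a ligand without passing on its signal.

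The promoters of 5 members on which the results below turn are shown as the 250 bases before the RefSeq transcript start, 5′ to 3′ on the gene's own strand, from RefSeq with build GRCm38.p6. Tnfsf15, Tnfrsf23 and Tnfrsf12a are shown because every MKO_PD1 library lay below every Cre_PD1 library for them. Ltb and Tnf are shown because they are neighbouring cytokine genes. Both were highest in MKO_PD1 replicate 2, which was the highest library for 22 of the 34 tested members and 23.3% of all genes. Capitals mark matches, on either strand, to an NF-kB motif (GGG, any 2 bases, then TTTCC), to the AP-1 motif TGANTCA or to the TATA box TATAAA. No matches overlap each other here.
Tnfsf15, chr4:63745060-63745309, minus strand: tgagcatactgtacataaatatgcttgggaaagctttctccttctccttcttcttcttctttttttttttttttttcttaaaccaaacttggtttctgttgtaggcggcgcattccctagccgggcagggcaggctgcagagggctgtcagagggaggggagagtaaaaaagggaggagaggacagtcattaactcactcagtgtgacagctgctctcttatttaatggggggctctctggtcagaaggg
Tnfrsf23, chr7:143685876-143686125, minus strand: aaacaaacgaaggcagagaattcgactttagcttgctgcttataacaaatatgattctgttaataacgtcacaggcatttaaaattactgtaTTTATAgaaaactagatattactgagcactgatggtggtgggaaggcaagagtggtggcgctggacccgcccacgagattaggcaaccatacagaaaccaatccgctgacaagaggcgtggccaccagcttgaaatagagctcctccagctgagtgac
Tnfrsf12a, chr17:23677450-23677699, minus strand: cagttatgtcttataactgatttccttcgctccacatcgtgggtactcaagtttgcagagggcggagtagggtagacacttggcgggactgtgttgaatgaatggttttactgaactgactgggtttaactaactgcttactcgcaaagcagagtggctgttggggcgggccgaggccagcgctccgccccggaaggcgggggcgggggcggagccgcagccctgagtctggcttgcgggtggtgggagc
Ltb, chr17:35194257-35194506, plus strand: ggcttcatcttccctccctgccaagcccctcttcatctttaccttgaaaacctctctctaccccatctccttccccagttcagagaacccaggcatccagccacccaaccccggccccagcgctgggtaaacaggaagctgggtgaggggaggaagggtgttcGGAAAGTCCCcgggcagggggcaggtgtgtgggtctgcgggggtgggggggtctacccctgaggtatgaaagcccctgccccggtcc
Tnf, chr17:35202008-35202257, minus strand: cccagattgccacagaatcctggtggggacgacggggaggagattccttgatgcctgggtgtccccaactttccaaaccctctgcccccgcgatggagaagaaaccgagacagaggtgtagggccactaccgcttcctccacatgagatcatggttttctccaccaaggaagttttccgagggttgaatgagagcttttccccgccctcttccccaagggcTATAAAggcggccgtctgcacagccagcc

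Of the 42 members, 31 had a promoter in the RefSeq table, with 35 promoters in all. The NF-kB letters were found in 3 of these promoters, the AP-1 letters in 6 and the TATA letters in 6. Among all 32851 promoters of the same length the shares were 1.41%, 6.75% and 12.4%. Tnf had the TATA letters 29 bases before its start and Ltb held 1 NF-kB match. In Tnfrsf23 the TATA letters lay on the other strand, and Tnfsf15 and Tnfrsf12a held none of the 3 motifs. Ltb (chromosome 17, 35194439 to 35196320, plus strand) and Tnf (chromosome 17, 35199381 to 35202007, minus strand) are annotated beside Lta in GENCODE M21, on build GRCm38.

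The family as a whole was a small part of the RNA, and its share was less even among the MKO_PD1 tumours. Levels are in TPM, obtained by rescaling each library to a total of 1000000. Values given in threes are replicates 1, 2 and 3. The members took 0.0600, 0.159 and 0.0928% of TPM in MKO_PD1 libraries and 0.149, 0.146 and 0.146% in Cre_PD1 libraries. MKO_PD1 replicate 2 lay above every Cre_PD1 library and the other two MKO_PD1 libraries lay below them all. Recovered reads ranged from 26747236 to 34264909 per library, so that 1 read on 1 kb of exon was worth 0.0763 to 0.114 TPM.

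Trem2 itself was at 7.68, 18.0 and 6.81 TPM in the libraries labelled MKO_PD1 and at 10.5, 16.5 and 14.9 TPM in those labelled Cre_PD1. The groups overlapped, and MKO_PD1 replicate 2 was the highest of the 6 (log2 difference -0.44, SE 0.40, limma adjusted p = 0.432). The deleted exons are not named in the labels and other cells of the tumour keep the gene, so these whole-gene values do not check the genotype. The design text counts 3 mice per group, so the spread between libraries includes that between animals. The libraries also differed in cell type markers. The 16 hepatocyte markers, all of them at 1 TPM or more in at least 3 libraries, summed to 33422 to 132601 TPM in MKO_PD1 and 11213 to 27832 TPM in Cre_PD1. The 10 epithelial tumour markers, keratins among them, summed to 2738 to 10881 TPM in MKO_PD1 and 19043 to 26235 TPM in Cre_PD1. In neither sum did the groups overlap, though the hepatocyte markers Apoa1, Apoa2 and Mup3 taken singly did. Spp1 and the keratins Krt8, Krt18 and Krt19 made up most of the second sum, and Spp1 alone was at 1072, 5332 and 3179 TPM in MKO_PD1 and 11070.5, 9801 and 10716.5 TPM in Cre_PD1. Other markers of that list overlapped, among them Epcam, at 3.09, 20.3 and 4.44 TPM in MKO_PD1 and 4.53, 14.6 and 19.6 TPM in Cre_PD1, Krt7 and Cldn4. Epcam and Cldn4 were highest in MKO_PD1 replicate 2. Of the 13 marker lists, the platelet gene Gp1bb was the only marker at 0 in all 6 libraries. In bulk tumours, fewer cells of a type and less RNA per cell cannot be told apart.

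No member passed the test between the groups, and 7 of 34 tested members had groups that did not overlap. The test was limma on log2(TPM + 1), with a pseudocount of 1. It took in the 16506 genes that reached 1 TPM in 3 or more libraries and was adjusted over all of them. At an adjusted p under 0.05, 0 of 34 members were called, where 0.0121% of all genes were. With limma voom on recovered reads the count was also 0. At an unadjusted p under 0.05 there were 6 members, 1 higher and 5 lower in MKO_PD1, where 8.47% of all genes were higher and 19.5% lower. Groups did not overlap for 2 members higher in MKO_PD1, Tnfrsf19 and Tnfrsf11b, against 10.1% of all genes. They did not overlap for 5 members lower in MKO_PD1, Tnfrsf22, Tnfrsf23, Tnfrsf12a, Tnfsf15 and Tnfrsf10b, against 28.9% of all genes. The members' shares, 5.88% and 14.7%, lay below these backgrounds.

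MKO_PD1 replicate 2 decided the count of calls. Without it, limma called 11 of 34 members, 1 higher and 10 lower, where 7.82% of all genes were called higher and 36.2% lower. The higher one was Tnfrsf19, and the lower ones were Tnfrsf22, Tnfrsf23, Tnfrsf12a, Tnfrsf10b, Tnfrsf21, Tnfrsf9, Tnfrsf4, Tnfsf15, Tnfsf9 and Tnfsf8. With array quality weights, which put a weight of 11.05 on MKO_PD1 replicate 3, 14 members were called, against 63.9% of all genes.

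Where the members lay between the groups depended on the scaling and on MKO_PD1 replicate 2. Their median log2 difference, MKO_PD1 minus Cre_PD1, was -0.0040 with 16 of 34 above 0, against a median of -0.42 over all genes with 27.1% above 0. Median-of-ratios scaling moved the median of all genes to -0.018 and that of the members to 0.33. With that scaling the groups did not overlap for 10 members higher in MKO_PD1, against 18.6% of all genes, and for the same number lower as before, 5, against 21.2%. The 12 tested ligands had a median of 0.14 and the 21 tested receptors one of -0.016, and with median-of-ratios scaling 0.44 and 0.35. Without MKO_PD1 replicate 2, on the TPM scale, the medians were -0.47 for the members, -0.54 for the ligands, -0.50 for the receptors and -0.64 for all genes.

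**Figure D1:**
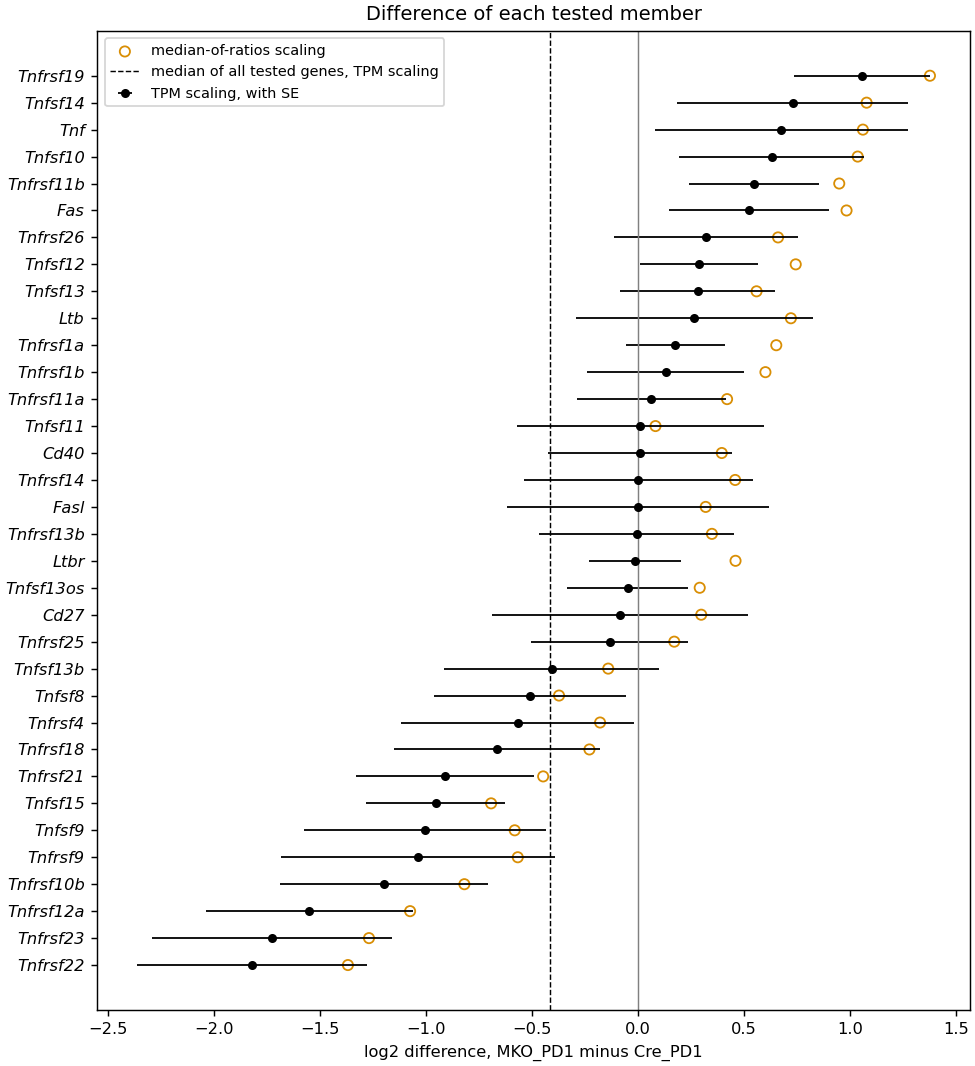
Log2 difference, MKO_PD1 minus Cre_PD1, of each of the 34 tested members (horizontal axis) with its standard error, on the TPM scale (filled) and after median-of-ratios scaling (open); the dashed line is the median of all 16506 tested genes on the TPM scale, -0.42. Tnfrsf19 is at the top with 1.06 and Tnfrsf22 at the bottom with -1.82, and the open points lie to the right of the filled ones.

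MKO_PD1 replicate 2 was the highest library for 22 of the 34 tested members, against 23.3% of all genes, and for 19 of them after median-of-ratios scaling, against 14.5%. MKO_PD1 replicate 1 was the lowest library for 19, against 70.7% of all genes. The 10 T cell markers summed to 56.9, 401 and 92.9 TPM in MKO_PD1 and 95.8, 129 and 170.2 TPM in Cre_PD1. The 8 markers of NK and cytotoxic cells summed to 80.1, 548 and 115 TPM in MKO_PD1 and 115, 167 and 212 TPM in Cre_PD1. Both lists were highest in MKO_PD1 replicate 2, overlapped between the groups and had no marker at 0 in all libraries.

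**Figure D2:**
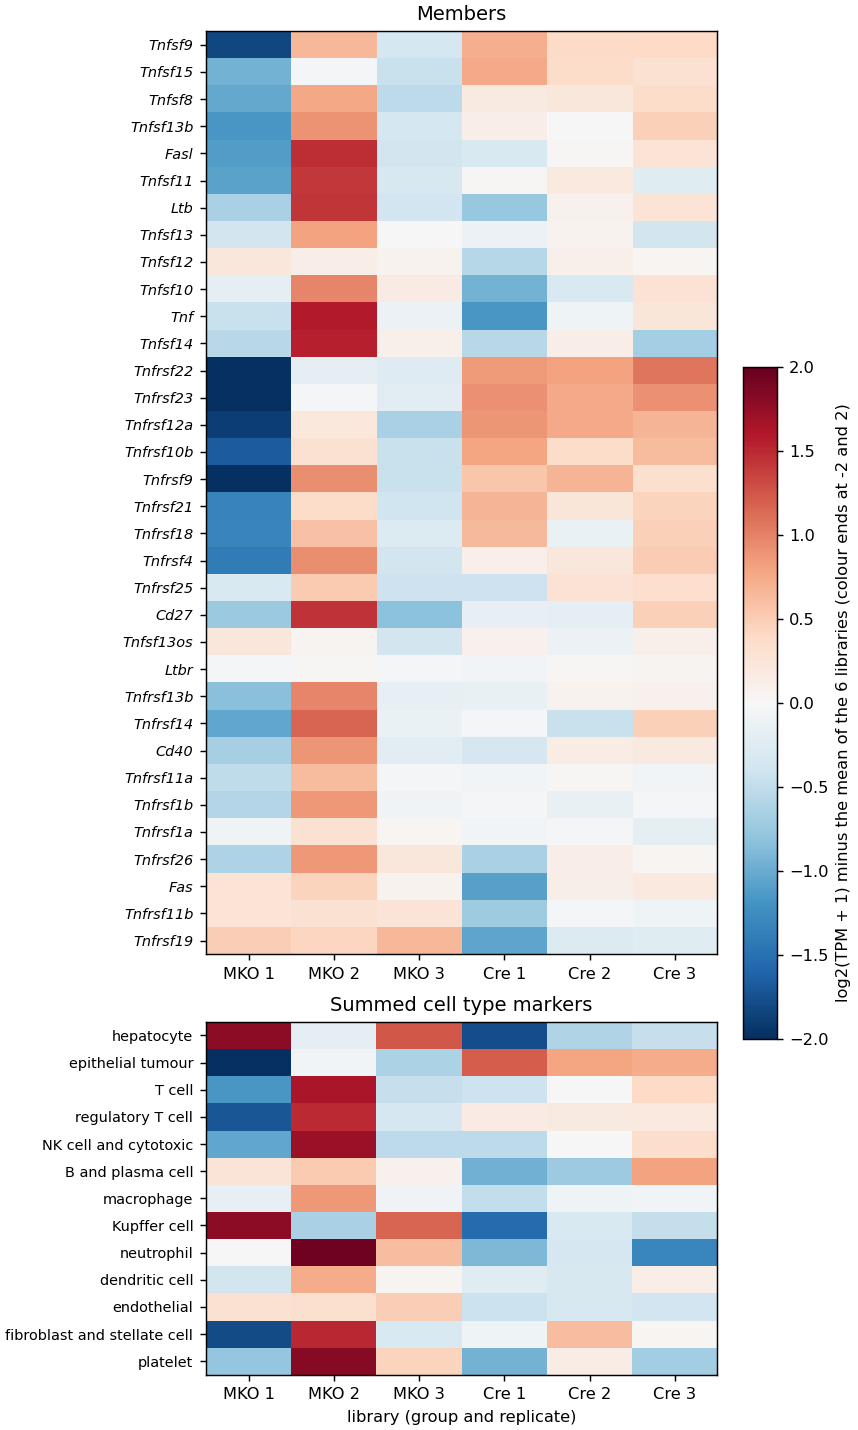
Each row is a tested member (upper panel, 34 genes) or a summed list of cell type markers (lower panel, 13 lists), each column a library, with MKO_PD1 left of Cre_PD1, and colour is log2(TPM + 1) minus the mean of the 6 libraries, ending at -2 and 2. The column of MKO_PD1 replicate 2 is red for 22 members as their highest library and for the T cell list, and MKO_PD1 replicate 1 is blue for most members and deep red for the hepatocyte and Kupffer cell lists.

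Among the ligands of inflammation and lymphoid tissue, TNF was low and uneven. Tnf, the founding cytokine of the family and made by activated macrophages and T cells, was at 4.23, 20.3 and 5.54 TPM in MKO_PD1 and 2.16, 5.69 and 7.45 TPM in Cre_PD1. MKO_PD1 replicate 2 stood 2.72-fold above the next library and the remaining values of the groups overlapped. The means were 10.01 ± 8.91 TPM in MKO_PD1 and 5.10 ± 2.69 TPM in Cre_PD1 (SD, n = 3 each), a log2 difference of 0.68 (SE 0.60, limma adjusted p = 0.422). Without MKO_PD1 replicate 2 the difference was 0.055. The 8 neutrophil markers, at 260, 1007 and 402 TPM in MKO_PD1 and 140, 207 and 105 TPM in Cre_PD1, were also highest in MKO_PD1 replicate 2. Their part in the Tnf values was not tested.

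Ltb, which encodes lymphotoxin beta, a membrane partner of lymphotoxin alpha made by lymphocytes, was at 16.5, 73.3 and 20.1 TPM in MKO_PD1 and 15.3, 28.1 and 32.3 TPM in Cre_PD1. It was the most abundant ligand, and like Tnf it was highest in MKO_PD1 replicate 2, by 2.27-fold over the next library. Its log2 difference was 0.27 (SE 0.56, limma adjusted p = 0.739) and turned to -0.38 without that library. Tnfsf14, encoding LIGHT, which binds both the lymphotoxin beta receptor and HVEM, was at 2.64, 14.7 and 4.76 TPM in MKO_PD1 and 2.66, 4.91 and 2.35 TPM in Cre_PD1. Its groups overlapped (log2 difference 0.73, SE 0.54, limma adjusted p = 0.350, and 0.14 without MKO_PD1 replicate 2). Lta, encoding lymphotoxin alpha, stayed under the filter, with 3, 17 and 4 recovered reads in MKO_PD1 and 4, 10 and 7 in Cre_PD1.

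The ligands of the death receptors were low in both groups. Fasl, the killing ligand of cytotoxic T cells and NK cells, was at 1.26, 12.7 and 2.83 TPM in MKO_PD1 and 3.00, 4.0 and 4.95 TPM in Cre_PD1. MKO_PD1 replicate 2 was 10.1-fold above MKO_PD1 replicate 1, while the 3 Cre_PD1 libraries lay between MKO_PD1 replicates 3 and 2. The log2 difference was -0.00041 (SE 0.62, limma adjusted p = 1.0), and leaving out 1 library moved it between -0.74 and 0.56. Set against the T cell list, a choice made after the values were seen, Fasl was at 22.1, 31.7 and 30.5 TPM per 1000 TPM of markers in MKO_PD1 and 31.3, 30.96 and 29.1 in Cre_PD1. On that scale its highest library was 1.43-fold above its lowest. Not all members evened out on it. Tnf was higher in every MKO_PD1 library, at 74.4, 50.5 and 59.6 in MKO_PD1 and 22.6, 44.1 and 43.8 in Cre_PD1. Against the T cell list several members were lower in every MKO_PD1 library, among them Tnfrsf12a, Tnfrsf22 and Tnfrsf4. Tnfrsf4, encoding OX40, was at 42.2, 40.2 and 64.1 in MKO_PD1 and 91.05, 74.2 and 69.75 in Cre_PD1.

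Tnfsf10, encoding TRAIL, which is induced by interferons and can kill tumour cells, was at 5.85, 14.4 and 7.85 TPM in MKO_PD1 and 3.08, 5.39 and 8.64 TPM in Cre_PD1. The means were 9.36 ± 4.46 TPM in MKO_PD1 and 5.71 ± 2.79 TPM in Cre_PD1, and the groups overlapped (log2 difference 0.63, SE 0.44, limma adjusted p = 0.320). Without MKO_PD1 replicate 2 the difference was 0.30. After median-of-ratios scaling no MKO_PD1 library lay below a Cre_PD1 library for Tnfsf10, Tnf or Tnfsf14.

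Tnfsf12, encoding TWEAK, the ligand of Fn14 in tissue repair, was the evenest of the 12 tested ligands, at 21.8, 20.3 and 19.5 TPM in MKO_PD1 and 12.1, 19.9 and 18.9 TPM in Cre_PD1. Cre_PD1 replicate 1 stood low and the other 5 libraries lay close together (log2 difference 0.29, SE 0.28, limma adjusted p = 0.465). Of the 50-base words in its exons, 46.8% are shared with Tnfsfm13, an annotated readthrough gene with Tnfsf13, and the labels do not say how such reads were assigned, so its level is uncertain. The same holds for Tnfsf13 (APRIL), with 57.3% shared, at 1.25 to 4.10 TPM over the 6 libraries. Its antisense gene Tnfsf13os, at 1.36 to 2.54 TPM, shares no such word, but its exons overlap those of Tnfsf13 and Tnfsfm13 on the opposite strand, and whether the counting used strand is not given in the sources used here. Tnfsf11, encoding RANKL, the ligand that drives osteoclast formation, had 0, 102 and 16 reads in MKO_PD1 and 26, 38 and 15 reads in Cre_PD1. Tnfsf13b, encoding BAFF, the survival factor of B cells, was at 0.611, 5.74 and 1.84 TPM in MKO_PD1 and 2.98, 2.61 and 4.02 TPM in Cre_PD1. For both genes MKO_PD1 held the lowest and the highest library.

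The costimulatory ligands Tnfsf9 and Tnfsf15 had negative differences. Tnfsf9, encoding the ligand of CD137, was at 3.84, 26.2 and 12.4 TPM in MKO_PD1 and 27.2, 21.4 and 21.6 TPM in Cre_PD1. MKO_PD1 replicates 1 and 3 lay below every Cre_PD1 library and replicate 2 lay among them (log2 difference -1.01, SE 0.57, limma adjusted p = 0.243). The antisense gene Gm11110 overlaps its exons, and the strand setting of the counting is not given in the sources used here. Tnfsf15 (chromosome 4, 63727084 to 63745113, minus strand), encoding TL1A, the ligand of DR3, was the ligand whose groups did not overlap. It was at 0.510, 1.82 and 1.12 TPM in MKO_PD1 and 3.88, 2.76 and 2.58 TPM in Cre_PD1. The means were 1.15 ± 0.655 TPM in MKO_PD1 and 3.07 ± 0.704 TPM in Cre_PD1 (log2 difference -0.95, SE 0.33, limma adjusted p = 0.168). Tnfsf8, the ligand of CD30, had 5, 107 and 22 reads in MKO_PD1 and 59, 73 and 62 reads in Cre_PD1. Cd40lg, Cd70, Tnfsf4 (OX40 ligand) and Tnfsf18 (GITR ligand), all ligands of costimulatory receptors, were under the filter, with at most 24 reads in any library.

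**Figure D3:**
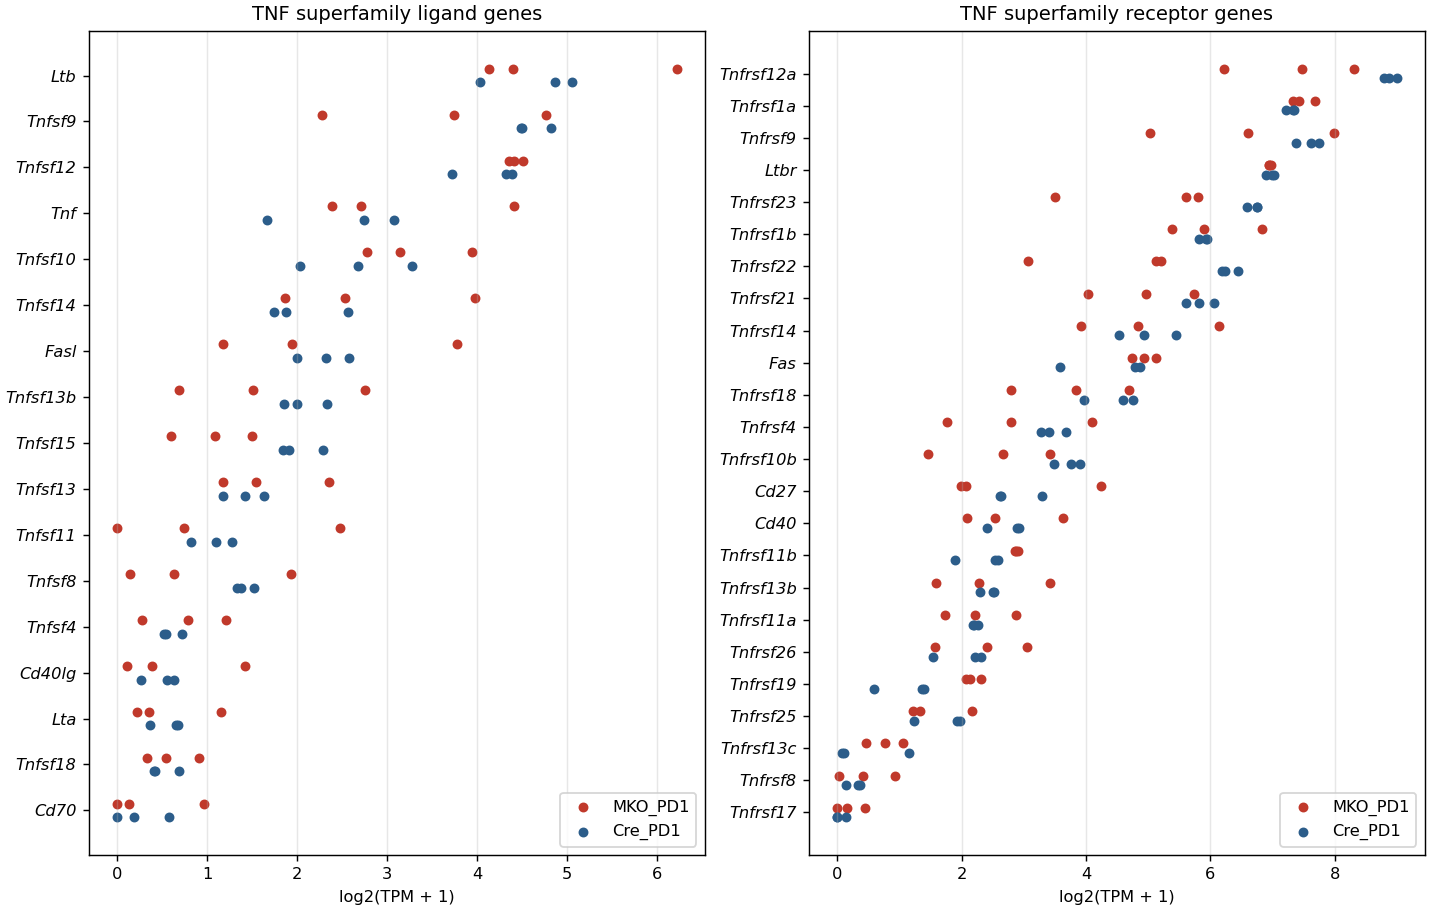
Levels of the 17 ligands (left) and 24 receptors (right) on a log2(TPM + 1) axis, ordered by their mean, with 1 point per library, MKO_PD1 above Cre_PD1 in each row. Receptors reached 510.3 TPM (Tnfrsf12a) and ligands 73.3 TPM (Ltb), and the MKO_PD1 points spread more widely in most rows.

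The 2 receptors of TNF were well expressed, and both overlapped between the groups on the TPM scale. With median-of-ratios scaling both were higher in every MKO_PD1 library, without passing the test (log2 difference 0.65 for Tnfrsf1a and 0.60 for Tnfrsf1b). Tnfrsf1a, encoding TNFR1, the death-domain receptor found on nearly all cells, was at 159, 205 and 171 TPM in MKO_PD1 and 161, 163 and 148 TPM in Cre_PD1. The groups overlapped through MKO_PD1 replicate 1 (log2 difference 0.18, SE 0.23, limma adjusted p = 0.591). Tnfrsf1b, encoding TNFR2, which prevails on immune cells, was at 40.6, 113 and 58.4 TPM in MKO_PD1 and 60.8, 55.7 and 60.0 TPM in Cre_PD1. Only MKO_PD1 replicate 2 stood above the Cre_PD1 range (log2 difference 0.13, SE 0.37, limma adjusted p = 0.804, and -0.27 without that library). The 10 macrophage markers were at 3362, 6921 and 3616 TPM in MKO_PD1 and 2701, 3564 and 3626 TPM in Cre_PD1, also highest in MKO_PD1 replicate 2. Per 1000 TPM of that list Tnfrsf1b was at 12.1, 16.3 and 16.2 TPM in MKO_PD1 and 22.5, 15.6 and 16.5 TPM in Cre_PD1.

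Ltbr, encoding the lymphotoxin beta receptor of stromal and epithelial cells, was the evenest member on the TPM scale. It was at 122, 126 and 122 TPM in MKO_PD1 and 119, 126 and 129 TPM in Cre_PD1, with the highest library 1.09-fold above the lowest. The log2 difference was -0.016 (SE 0.22, limma adjusted p = 0.959), and it moved to 0.46 with median-of-ratios scaling. Tnfrsf14, encoding HVEM, which LIGHT and the inhibitory receptor BTLA bind, was at 14.2, 69.7 and 27.7 TPM in MKO_PD1 and 29.5, 22.1 and 42.8 TPM in Cre_PD1. Its lowest and highest libraries were MKO_PD1 replicates 1 and 2 (log2 difference 0.00089, SE 0.54, limma adjusted p = 0.999, and -0.58 without replicate 2 of MKO_PD1).

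Among the receptors of death ligands, Fas had a positive difference and the TRAIL receptor gene a negative one, neither past the test. Fas, the receptor of Fas ligand and abundant on hepatocytes, was at 29.7, 33.8 and 25.8 TPM in MKO_PD1 and 11.02, 26.6 and 28.1 TPM in Cre_PD1. Cre_PD1 replicate 1 stood low and the other 5 libraries overlapped (log2 difference 0.52, SE 0.38, limma adjusted p = 0.335). With median-of-ratios scaling Fas was higher in every MKO_PD1 library, again without passing the test (log2 difference 0.98). Tnfrsf10b (chromosome 14, 69767472 to 69784411, plus strand), the death receptor of TRAIL in mice, was at 1.73, 9.75 and 5.36 TPM in MKO_PD1 and 14.0, 10.2 and 12.5 TPM in Cre_PD1. The groups did not overlap, and the gap between MKO_PD1 replicate 2 and Cre_PD1 replicate 2 was narrow. The means were 5.61 ± 4.01 TPM in MKO_PD1 and 12.2 ± 1.91 TPM in Cre_PD1 (log2 difference -1.20, SE 0.49, limma adjusted p = 0.170). Tnfrsf21, encoding the death-domain receptor DR6, was at 15.4, 52.3 and 30.4 TPM in MKO_PD1 and 65.4, 47.6 and 55.3 TPM in Cre_PD1. Here MKO_PD1 replicate 2 lay within the Cre_PD1 range (log2 difference -0.91, SE 0.42, limma adjusted p = 0.189).

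The decoy TRAIL receptors Tnfrsf22 and Tnfrsf23 had the largest negative differences of the family. Both genes are known to encode mouse receptors that bind TRAIL without a death domain, and they lie side by side on chromosome 7 with Tnfrsf26. Tnfrsf22 (143634806 to 143649661, minus strand) was at 7.40, 35.9 and 33.9 TPM in MKO_PD1 and 74.1, 71.8 and 86.1 TPM in Cre_PD1. The means were 25.7 ± 15.9 TPM in MKO_PD1 and 77.3 ± 7.66 TPM in Cre_PD1, so Cre_PD1 was 3.01-fold higher (log2 difference -1.82, SE 0.54, limma adjusted p = 0.168). Tnfrsf23 (143665809 to 143685872, minus strand) was at 10.4, 55.0 and 47.9 TPM in MKO_PD1 and 107, 95.6 and 107 TPM in Cre_PD1. For both genes every MKO_PD1 library lay below every Cre_PD1 library, with MKO_PD1 replicate 1 the lowest. The log2 difference of Tnfrsf23 was -1.73 (SE 0.57, limma adjusted p = 0.168). Within a library Tnfrsf23 was 1.40, 1.53 and 1.41 times Tnfrsf22 in MKO_PD1 and 1.45, 1.33 and 1.25 times in Cre_PD1.

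These paralogs are not fully separable by sequence. Of the 50-base words of Tnfrsf22, 27.4% occur in other genes and 17.3% in Tnfrsf23, and 18% of those of Tnfrsf23 occur in Tnfrsf22, so their division of reads is uncertain. The antisense gene E230032D23Rik overlaps exons of Tnfrsf23 and Tnfrsf26. Tnfrsf26, the third receptor gene of this cluster, was at 1.97, 7.28 and 4.29 TPM in MKO_PD1 and 1.89, 3.96 and 3.65 TPM in Cre_PD1, and its groups overlapped.

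Tnfrsf12a, the most abundant member, did not overlap either. Tnfrsf12a (ENSMUSG00000023905.15, chromosome 17, 23675445 to 23677468, minus strand) encodes Fn14, a small receptor that growth factors and injury induce in epithelial cells and that binds TWEAK. It was at 73.8, 318 and 176 TPM in MKO_PD1 and 510.3, 468 and 445 TPM in Cre_PD1. The 3 Cre_PD1 libraries lay close together and the 3 MKO_PD1 libraries spread 4.31-fold. The means were 189.6 ± 123 TPM in MKO_PD1 and 474 ± 33.2 TPM in Cre_PD1 (log2 difference -1.55, SE 0.49, limma adjusted p = 0.168).

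Like the summed epithelial tumour markers, the 5 members lower in every MKO_PD1 library were lowest in MKO_PD1 replicate 1. The same library was the lowest for 70.7% of all genes, and 28.9% of all genes were lower in every MKO_PD1 library. The shared order is thus not particular to these members. The sum over this list rested mostly on Spp1, Krt8, Krt18 and Krt19, with Spp1 the largest part in every library. Which cells carried Spp1, and whether the sum follows the number of tumour cells, was not tested. Per 1000 TPM of that list, a measure chosen after the values were seen, Tnfrsf12a was at 27.0, 29.3 and 24.2 TPM in MKO_PD1 and 19.5, 24.0 and 23.4 TPM in Cre_PD1. On that scale the MKO_PD1 libraries lay above the Cre_PD1 libraries by a narrow gap. Tnfsf15 was at 0.186, 0.167 and 0.154 in MKO_PD1 and 0.148, 0.141 and 0.136 in Cre_PD1, likewise above. Tnfrsf22 was at 2.70, 3.30 and 4.65 in MKO_PD1 and 2.83, 3.67 and 4.52 in Cre_PD1, and Tnfrsf23 at 3.78, 5.05 and 6.57 in MKO_PD1 and 4.09, 4.89 and 5.63 in Cre_PD1. These paralogs overlapped between the groups on that scale, as did Tnfrsf10b. Most tested members lay above on it, so that position is not particular to Tnfrsf12a and Tnfsf15. Per 1000 TPM of the macrophage list Tnfrsf12a was lower in every MKO_PD1 library. Its values there were 21.97, 46.01 and 48.8 TPM in MKO_PD1 and 188.9, 131.4 and 122.7 TPM in Cre_PD1. Tnfsf15 was lower against that list too, and both genes were lower against the T cell list.

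The receptors of the RANKL system and TROY lay above Cre_PD1 or near it. Tnfrsf19 (chromosome 14, 60963875 to 61046490, minus strand) encodes TROY, a receptor of developing epithelium and the nervous system that is also a marker of Wnt-responsive stem cells. It was at 3.41, 3.19 and 3.95 TPM in MKO_PD1 and 0.498, 1.58 and 1.64 TPM in Cre_PD1. The MKO_PD1 libraries, with 212, 151 and 198 reads, lay above the Cre_PD1 libraries, with 24, 90 and 68. The means were 3.52 ± 0.392 TPM in MKO_PD1 and 1.24 ± 0.642 TPM in Cre_PD1, which is 2.84-fold higher (log2 difference 1.06, SE 0.32, limma adjusted p = 0.168). Tnfrsf11b (chromosome 15, 54250619 to 54278484, minus strand), encoding osteoprotegerin, a secreted decoy for RANKL that also binds TRAIL, was at 6.36, 6.53 and 6.27 TPM in MKO_PD1 and 2.72, 5.02 and 4.78 TPM in Cre_PD1. The MKO_PD1 libraries were nearly equal and all above Cre_PD1 (log2 difference 0.55, SE 0.31, limma adjusted p = 0.239). Tnfrsf11a, encoding RANK, lay between 2.33 and 6.35 TPM over the 6 libraries, with both extremes in MKO_PD1.

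Like Tnfrsf19 and Tnfrsf11b, the summed hepatocyte markers were higher in every MKO_PD1 library. So were the 8 endothelial markers summed, at 134, 134 and 152 TPM in MKO_PD1 and 79.7, 86.3 and 82.7 TPM in Cre_PD1. The summed neutrophil markers given above were higher in every MKO_PD1 library too. Single endothelial markers such as Emcn and Vwf overlapped between the groups. Within MKO_PD1 the hepatocyte sum ranged from 33422 to 132601 TPM, Tnfrsf19 from 3.19 to 3.95 TPM and Tnfrsf11b from 6.27 to 6.53 TPM. Per 1000 TPM of the hepatocyte list Tnfrsf19 was at 0.0257, 0.0954 and 0.0437 TPM in MKO_PD1 and 0.0444, 0.0625 and 0.0588 TPM in Cre_PD1, and the groups overlapped. Tnfrsf11b per 1000 TPM of that list was at 0.0480, 0.196 and 0.0694 TPM in MKO_PD1 and 0.243, 0.198 and 0.172 TPM in Cre_PD1, and overlapped too. Which cells carried the transcripts was not tested.

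**Figure D4:**
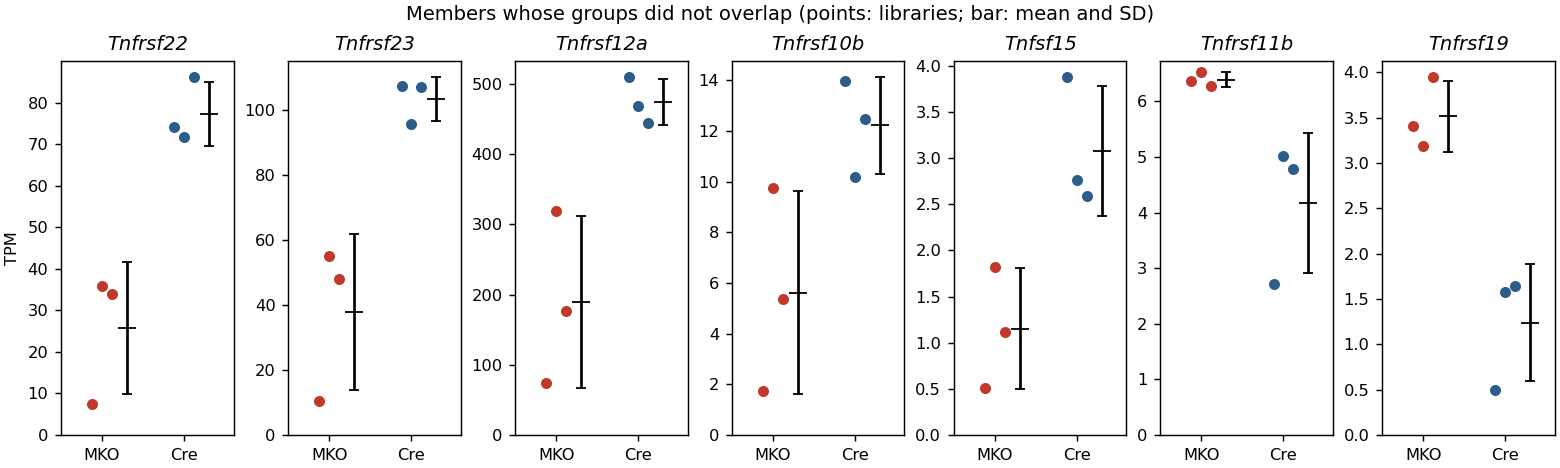
TPM of the 7 members whose groups did not overlap, MKO_PD1 (red) left of Cre_PD1 (blue), with 1 point per library and a bar for mean ± SD, each panel on its own axis from 0. For Tnfrsf22, Tnfrsf23, Tnfrsf12a, Tnfrsf10b and Tnfsf15 the MKO_PD1 points lie below those of Cre_PD1, and for Tnfrsf11b and Tnfrsf19 above.

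The costimulatory receptors of T cells were widely spread in MKO_PD1 and overlapped between the groups. Tnfrsf9, encoding CD137, an activation marker of T cells and a target of agonist antibodies, was at 31.6, 253 and 96.7 TPM in MKO_PD1 and 196, 214 and 165 TPM in Cre_PD1. MKO_PD1 replicate 2 was the highest library and the other MKO_PD1 libraries were the lowest (log2 difference -1.04, SE 0.65, limma adjusted p = 0.279, and -1.76 with an adjusted p of 0.0304 without MKO_PD1 replicate 2). Within a library it was 11.6, 14.5 and 20.8 times the level of Cd3e in MKO_PD1 and 42.1, 40.8 and 19.1 times in Cre_PD1. Cd3e encodes a chain of the T cell receptor complex, and the ratio overlapped between the groups through Cre_PD1 replicate 3. Per 1000 TPM of the T cell list Tnfrsf9 was at 555, 631 and 1040 TPM in MKO_PD1 and 2044, 1658 and 971 TPM in Cre_PD1. In some libraries it thus exceeded the 10 T cell markers together, and which cells carried it was not tested.

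Tnfrsf4, encoding OX40, a receptor of activated and regulatory T cells, was at 2.40, 16.1 and 5.96 TPM in MKO_PD1 and 8.72, 9.58 and 11.9 TPM in Cre_PD1. MKO_PD1 again held both extremes (log2 difference -0.57, SE 0.55, limma adjusted p = 0.461). Tnfrsf18, encoding GITR, also a receptor of regulatory T cells, was at 5.90, 24.9 and 13.3 TPM in MKO_PD1 and 26.1, 14.7 and 23.1 TPM in Cre_PD1. Its log2 difference was -0.67 (SE 0.49, limma adjusted p = 0.341), and the antisense gene Gm16008 overlaps its exons. The 4 regulatory T cell markers, Foxp3 among them, summed to 2.66, 32.6 and 8.46 TPM in MKO_PD1 and 12.3, 12.4 and 12.7 TPM in Cre_PD1, the same order of libraries as Tnfrsf4 within MKO_PD1. Only 2 of the 4 reached 1 TPM in at least 3 libraries, and Ctla4 made up most of the sum. Foxp3 itself was at 0.133, 2.30 and 0.393 TPM in MKO_PD1 and 1.01, 0.346 and 0.897 TPM in Cre_PD1.

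Cd27, the receptor of naive and memory lymphocytes for CD70, was at 3.18, 18.0 and 2.96 TPM in MKO_PD1 and 5.24, 5.15 and 8.77 TPM in Cre_PD1. Cd40, the receptor through which helper T cells activate dendritic cells and B cells, was at 3.25, 11.4 and 4.77 TPM in MKO_PD1 and 4.33, 6.41 and 6.599 TPM in Cre_PD1. In both, MKO_PD1 replicate 2 was highest, and the log2 differences were -0.085 (SE 0.61) and 0.0075 (SE 0.43), with limma adjusted p values of 0.924 and 0.991. Without that library they were -0.83 for Cd27 and -0.43 for Cd40. Tnfrsf25, encoding DR3, was at 1.51, 3.47 and 1.33 TPM in MKO_PD1 and 1.34, 2.78 and 2.91 TPM in Cre_PD1. Tnfrsf8, encoding CD30, was under the filter with 1, 31 and 12 reads in MKO_PD1 and 9, 12 and 3 reads in Cre_PD1.

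Of the B cell receptors of BAFF and APRIL only Tnfrsf13b, encoding TACI, was tested. It was at 2.02, 9.67 and 3.83 TPM in MKO_PD1 and 3.88, 4.67 and 4.71 TPM in Cre_PD1, with MKO_PD1 libraries at both extremes (log2 difference -0.0075, SE 0.46, limma adjusted p = 0.991). Tnfrsf13c, the BAFF receptor of mature B cells, had 10, 22 and 15 reads in MKO_PD1 and 1, 2 and 22 reads in Cre_PD1. Tnfrsf17, encoding BCMA of plasma cells, had at most 3 reads in any library. The 8 markers of B and plasma cells summed to 69.5, 84.1 and 61.9 TPM in MKO_PD1 and 29.5, 34.5 and 102 TPM in Cre_PD1, and Tnfrsf13c, like that list, was lowest in Cre_PD1 replicates 1 and 2.

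Ratios of a ligand to its receptor within a library do not depend on the scaling. They were described for 15 pairs, of which 2 were higher in every MKO_PD1 library, 1 was lower in every MKO_PD1 library and 12 overlapped. No such share was worked out for other gene pairs, so these counts carry no result about the family. Tnfsf10 over Tnfrsf10b, TRAIL over its death receptor, was 3.37, 1.48 and 1.46 in MKO_PD1 and 0.220, 0.529 and 0.693 in Cre_PD1. Tnfsf12 over Tnfrsf12a, TWEAK over Fn14, was 0.295, 0.0637 and 0.110 in MKO_PD1 and 0.0238, 0.0425 and 0.0425 in Cre_PD1. Both pairs combine a ligand whose groups overlapped with a receptor that was lower in every MKO_PD1 library. Tnfsf15 over Tnfrsf25 was 0.339, 0.524 and 0.842 in MKO_PD1 and 2.90, 0.992 and 0.889 in Cre_PD1. Tnfsf9 over Tnfrsf9 was the most even of the pairs drawn, at 0.122, 0.104 and 0.128 in MKO_PD1 and 0.139, 0.1001 and 0.131 in Cre_PD1, although both genes varied more than 7-fold between libraries. Fasl over Fas was 0.0424, 0.376 and 0.110 in MKO_PD1 and 0.272, 0.151 and 0.176 in Cre_PD1, with both extremes in MKO_PD1.

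**Figure D5:**
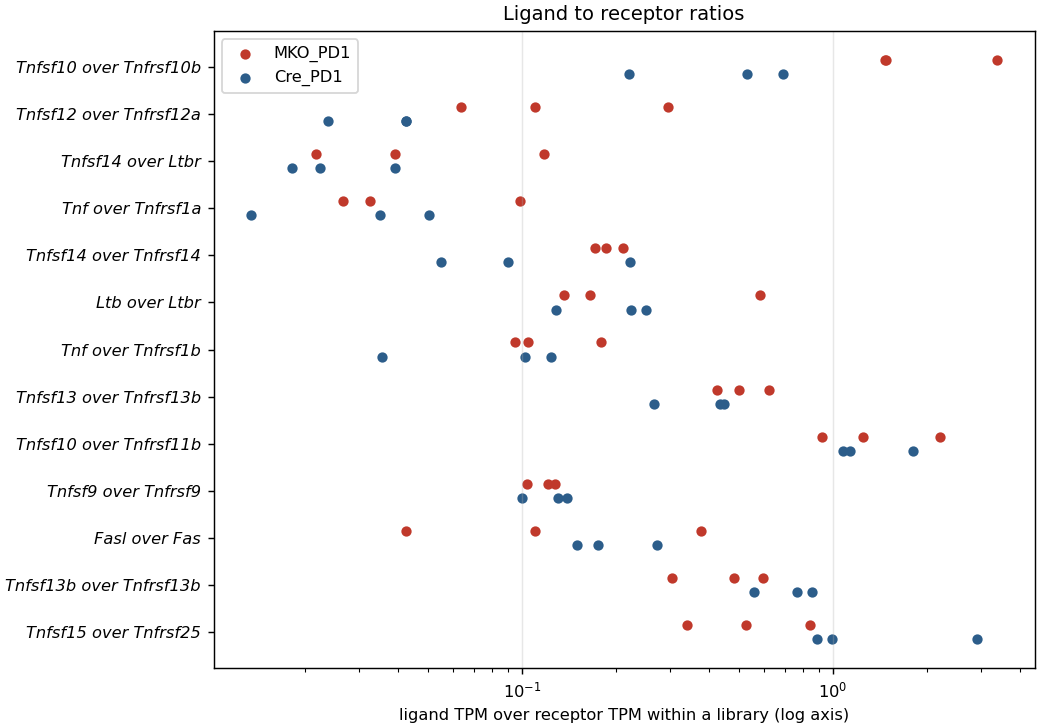
Ligand TPM over receptor TPM within each library on a log axis for 13 of the 15 pairs, MKO_PD1 above Cre_PD1 in each row; the 2 pairs with Tnfsf11 are left out because it was at 0 in MKO_PD1 replicate 1. The top rows, Tnfsf10 over Tnfrsf10b and Tnfsf12 over Tnfrsf12a, have all MKO_PD1 points to the right of Cre_PD1, and the bottom row, Tnfsf15 over Tnfrsf25, has them to the left.

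The machinery downstream of the receptors was mostly on the lower side in MKO_PD1 on the TPM scale, where the median of all genes was also negative. Adjusted over all genes, 0 genes of any of the 6 lists passed, and the unadjusted counts are given with each list. Over all genes 27.1% were above 0, and at an unadjusted p under 0.05 8.47% were higher and 19.5% lower. All 11 receptor adaptors were tested, with 0 above 0, 0 at an unadjusted p under 0.05 and a median of -0.42, against -0.42 over all genes. Traf2, the ubiquitin ligase adaptor of TNFR1 and TNFR2, was at 14.9 ± 6.94 TPM in MKO_PD1 and 24.8 ± 2.65 TPM in Cre_PD1 (log2 difference -0.78, limma adjusted p = 0.182). Traf3, which restrains the alternative NF-kB route, was at 16.5 ± 10.2 TPM in MKO_PD1 and 25.3 ± 6.79 TPM in Cre_PD1. Tradd, the first adaptor of TNFR1, was at 39.5 ± 9.66 TPM in MKO_PD1 and 55.3 ± 5.33 TPM in Cre_PD1, and Rbck1, of the linear ubiquitin complex, at 69.3 ± 27.8 TPM in MKO_PD1 and 96.7 ± 10.1 TPM in Cre_PD1. After median-of-ratios scaling the adaptor median was 1.5e-05.

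Of 12 genes of death signalling 2 were above 0, against 27.1% of all genes, and the median was -0.29, or 0.17 after median-of-ratios scaling. At an unadjusted p under 0.05, 2 were lower, against 19.5% of all genes. Casp8, the initiator caspase of Fas and TRAIL receptors, was at 30.1, 78.6 and 46.0 TPM in MKO_PD1 and 108, 75.7 and 90.2 TPM in Cre_PD1, overlapping through MKO_PD1 replicate 2 (log2 difference -0.90, limma adjusted p = 0.169). Birc3, an inhibitor of apoptosis that NF-kB induces, was at 14.7, 28.0 and 18.1 TPM in MKO_PD1 and 11.8, 12.1 and 14.4 TPM in Cre_PD1, above Cre_PD1 in each library (log2 difference 0.59, limma adjusted p = 0.218). Cyld, a deubiquitinase that dampens NF-kB, was at 13.2 ± 7.14 TPM in MKO_PD1 and 19.8 ± 1.37 TPM in Cre_PD1.

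Of 16 NF-kB subunits, kinases and inhibitors 1 was above 0, against 27.1% of all genes, and the median was -0.41, beside -0.42 over all genes, or 0.045 after median-of-ratios scaling. At an unadjusted p under 0.05, 2 were lower, against 19.5% of all genes. These were Tnip1, a partner of the NF-kB inhibitor A20, at 35.0 ± 19.1 TPM in MKO_PD1 and 63.8 ± 5.70 TPM in Cre_PD1, and Nfkb2, the precursor of the alternative NF-kB subunit, at 49.6 ± 26.04 TPM in MKO_PD1 and 90.3 ± 14.2 TPM in Cre_PD1. Rela, the main activating subunit, was at 80.5 ± 21.6 TPM in MKO_PD1 and 120.05 ± 8.08 TPM in Cre_PD1, and Relb, a subunit of the alternative route, at 24.99 ± 15.8 TPM in MKO_PD1 and 41.3 ± 3.24 TPM in Cre_PD1.

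Genes that TNF is known to induce through NF-kB had a median above 0 with all 6 libraries and below 0 without MKO_PD1 replicate 2, on the TPM scale. Of 15 tested out of 16, 11 were above 0, against 27.1% of all genes. At an unadjusted p under 0.05, 4 were higher, against 8.47% of all genes, and 0 lower, against 19.5%. The median was 0.091, or 0.54 after median-of-ratios scaling. Without MKO_PD1 replicate 2 it was -0.40, beside -0.64 over all genes, and 2 of the list were called higher, Cxcl1 and Lcn2, against 7.82% of all genes, and 2 lower, the adhesion molecule gene Vcam1 and Tnfaip2, against 36.2%. Cxcl1, a chemokine that attracts neutrophils, was at 55.8, 46.5 and 57.8 TPM in MKO_PD1 and 10.8, 23.7 and 14.1 TPM in Cre_PD1, without overlap (log2 difference 1.72, limma adjusted p = 0.168). Cxcl2, a related chemokine, was at 8.96, 30.5 and 24.3 TPM in MKO_PD1 and 5.42, 14.3 and 5.41 TPM in Cre_PD1, where MKO_PD1 replicate 1 overlapped with Cre_PD1 (log2 difference 1.22, limma adjusted p = 0.179). Lcn2, an iron-binding acute phase protein also stored in neutrophils and made by hepatocytes, was at 544 ± 171 TPM in MKO_PD1 and 254 ± 87.0 TPM in Cre_PD1 (log2 difference 1.11, limma adjusted p = 0.168). Sod2, the mitochondrial superoxide dismutase, was at 34.8 ± 3.91 TPM in MKO_PD1 and 22.2 ± 3.29 TPM in Cre_PD1 (log2 difference 0.63, limma adjusted p = 0.168). The summed neutrophil and hepatocyte markers were also higher in every MKO_PD1 library, while single markers such as Csf3r, Cxcr2 and Mup3 overlapped. The part of these cells in the values above was not tested.

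Of 7 genes that process TNF or act on its message 1, Zfp36, was above 0, against 27.1% of all genes, with a median of -0.48, or -0.016 after median-of-ratios scaling. At an unadjusted p under 0.05, 1 was lower, against 19.5% of all genes. Rhbdf1, a rhomboid-like partner of the shedding enzyme of TNF, was at 10.8, 30.8 and 21.1 TPM in MKO_PD1 and 53.2, 43.6 and 54.7 TPM in Cre_PD1, without overlap (log2 difference -1.34, limma adjusted p = 0.168). Elavl1, an RNA-binding protein that stabilises such messages, was at 18.3 ± 7.93 TPM in MKO_PD1 and 29.2 ± 2.43 TPM in Cre_PD1. Zfp36, encoding tristetraprolin, which destabilises the Tnf message, was at 61.2 ± 11.6 TPM in MKO_PD1 and 46.1 ± 3.06 TPM in Cre_PD1. The protease gene Furin was at 82.9 ± 20.6 TPM in MKO_PD1 and 109.6 ± 18.0 TPM in Cre_PD1 (log2 difference -0.41, and 0.060 after median-of-ratios scaling). Family genes with other names, 4 tested of 6, had 0 above 0, 0 at an unadjusted p under 0.05 and a median of -0.29, or 0.098 after median-of-ratios scaling. Relt, a receptor of lymphoid tissue, was at 12.9 ± 8.94 TPM in MKO_PD1 and 13.7 ± 2.92 TPM in Cre_PD1. Eda, the ligand of skin appendage development, was at 1.502 ± 0.594 TPM in MKO_PD1 and 2.17 ± 0.231 TPM in Cre_PD1. Ngfr, the low-affinity neurotrophin receptor, was at 1.73 ± 0.370 TPM in MKO_PD1 and 2.43 ± 0.552 TPM in Cre_PD1, and Eda2r, a receptor for a form of ectodysplasin, at 1.41 ± 0.253 TPM in MKO_PD1 and 1.42 ± 0.268 TPM in Cre_PD1.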

How the data were processed

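Polyadenylated RNA of 6 tumours was sequenced as bulk libraries, and groups were taken from the sample titles. Per the submitters' processing notes, reads were aligned with STAR 2.7.10a to mm10 and counted with featureCounts 2.0.3 of Subread. The authors deposited their values under the name TPM, but these are a read signal per exon length with no fixed total: column sums ranged from 70363 to 105281, and how they were scaled is not given in the sources used here. The scale assumed beforehand was TPM. Value times exon length (GENCODE M21) over a constant of 8.03 gave whole reads, within 0.001, for 98.5% of the 29798 expressed genes of known length, and for 41 of 42 members, the exception being Tnfsf15. Each library was rescaled to 1000000, which gives TPM.

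The group comparison used limma 3.58.1 (R 4.3.3), with mean-variance trend and no covariate, on log2(TPM + 1). Genes that reached 1 TPM in 3 or more libraries were tested, with Benjamini-Hochberg adjustment over all 16506 genes and a threshold of 0.05. An exact permutation test of 3 against 3 cannot reach that threshold and was not used. The procedure was tested on simulated reads with the same dispersion for all genes and no outlying library. That simulation does not show how the test behaves with libraries as uneven as these. Reads carry no molecular identifiers, so read numbers cover counting error only. Per-library values are given for members with a mean of at least 5 TPM in either group, for called members and for the 6 of smallest p in each direction. Up to 4 genes of each pathway list are named by smallest p, and 1 gene that this rule takes is not reported here. Other members are given by range, reads or value. Members, lists and tests were chosen with earlier results of these data known. The same-numbered libraries of the groups did not deviate together. With so few libraries this cannot exclude a pairing, and the main fit used none. Alternatives changed the pseudocount, filter, scaling, variance model, sample weights, replicate block, value modelled and each library in turn, and the combination of median-of-ratios scaling without MKO_PD1 replicate 2 was added after seeing the data.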

Additional observations from a re-analysis of the deposited data

How the results depend on the processing

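Of all genes, 2 passed the threshold, and 0 did with a filter of 5 TPM, with no filter, with quantile normalization, with limma voom on recovered reads and with the replicate block. Median-of-ratios scaling gave 1, array quality weights 10551, and median-of-ratios scaling without MKO_PD1 replicate 2 gave 3347. Leaving out 1 library gave between 0 and 7269, the highest without MKO_PD1 replicate 2. The members had 0 calls under every setting except array weights (14), median-of-ratios scaling without MKO_PD1 replicate 2 (4) and single libraries left out (0 to 11, the 11 without MKO_PD1 replicate 2). The cause was not tested. The array weights put 11.05 on MKO_PD1 replicate 3 and 0.19 and 0.20 on the other two of that group. The replicate block changed no call among the members, with 0 called, and same-numbered libraries had correlations of -0.42, -0.27 and 0.049 of their deviations.

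Of 50 single genes, 13 changed sign under some alternative, most of them near 0. With median-of-ratios scaling the log2 difference turned to 0.30 for Cd27, 0.28 for Eda2r, 0.32 for Fasl, 0.060 for Furin, 0.46 for Ltbr, 0.029 for Ngfr, 0.17 for Relt and 0.35 for Tnfrsf13b. With that scaling and without MKO_PD1 replicate 2 it was 0.43 for Eda2r, 0.13 for Furin, 0.69 for Ltbr, 0.31 for Ngfr, 0.052 for Tnfrsf13b and 0.029 for Tradd. Quantile normalization gave 0.20 for Cd27, 0.17 for Eda2r, 0.21 for Fasl, 0.24 for Ltbr, 0.11 for Relt and 0.22 for Tnfrsf13b. Limma voom gave 0.11 for Eda2r, 0.11 for Ltbr and 0.049 for Tnfrsf13b. Array weights gave -0.25 for Cd40, 0.11 for Eda2r, -0.31 for Ltb and -0.072 for Tnfrsf14. Pseudocounts of 0.1 and 0.5 gave -0.013 and -0.0023 for Cd40 and -0.0064 and -0.0030 for Tnfrsf14. Leaving out single libraries moved Cd27 between -0.83 and 0.30, Cd40 between -0.43 and 0.34, Eda2r between -0.092 and 0.069, Fasl between -0.74 and 0.56, Ltb between -0.38 and 0.66 and Ltbr between -0.050 and 0.0095. The same moved Relt between -0.75 and 0.18, Tnfrsf13b between -0.50 and 0.41, Tnfrsf14 between -0.58 and 0.52 and Tnfrsf1b between -0.27 and 0.46. The sign did not change under any alternative for Tnfrsf22, Tnfrsf23, Tnfrsf12a, Tnfrsf10b, Tnfsf15, Tnfrsf19 and Tnfrsf11b. For the members under the filter, with at most 31 reads in a library, depth limits what a difference could show.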
